A study of Mus musculus with 123 samples.

Results

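The 33 genes described here encode coagulation factors (19 genes) and complement factors (14 genes), and all 33 were found by symbol, once each, among the 15398 genes measured in liver. The coagulation genes include the fibrinogen chains Fga, Fgb and Fgg, and the vitamin K dependent proteins F2, F7, F9, F10, Proc and Pros1. F11, F12, Klkb1 and Kng1 belong to the contact and intrinsic pathway. F5 is a cofactor, and F13b is the carrier subunit of factor XIII. Serpinc1, Serpind1, Serpinf2 and Plg are the inhibitors and fibrinolysis genes. The complement genes are the lectin pathway members Mbl1, Mbl2, Masp1 and Masp2; the C3 convertase components and regulator C2, C3, C4b, Cfb and Cfi; and the terminal components C6, C8a, C8b, C8g and C9. Genes were matched to the list by symbol alone. All 33 also passed the filter on low values, under which 14397 genes were tested.

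Liver RNA was sequenced from mice fed a diet labelled HFD (high fat, 61 libraries) or LFD (low fat, 62 libraries) and kept in a photoperiod labelled Equal, Long or Short light. Livers were taken at 6 zeitgeber times (ZT, hours of the light cycle), ZT0, ZT4, ZT8, ZT12, ZT16 and ZT20, so that the libraries form 36 groups, 21 of 3 libraries and 15 of 4. The labels give no strain, genotype, sex, age, length of feeding or hours of light, and do not say which event of the light cycle ZT0 marks. They name no individual animals either, so that p-values measure the spread between these libraries, which may be technical.

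Coagulation is a cascade of serine proteases, most of them made by hepatocytes as inactive precursors, that ends when thrombin (F2) cuts fibrinogen into fibrin. The contact pathway starts it from F12, plasma kallikrein (Klkb1) and kininogen (Kng1), the extrinsic pathway from F7, and both meet at F10 with its cofactor F5, while antithrombin (Serpinc1) and protein C (Proc) hold it back and plasmin (Plg) dissolves the clot. Complement is a second protease cascade of hepatic origin, in which the lectin, classical and alternative routes build convertases from C2, C4 and factor B that cut C3, and the terminal components assemble a pore in target membranes. Several genes of both cascades are acute phase genes, whose transcription in the liver changes in inflammation.

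Recovered reads per library ran from 13.97 M to 39.09 M with a median of 24.06 M. The hepatocyte list was high in every library, with a mean level of 12.1 to 12.8 log2 CPM (reads of a gene scaled to equal library size) over its 9 measured markers. In 20 libraries (5 HFD, 15 LFD) the mean of the pancreas acinar or the skeletal muscle markers was above 4 log2 CPM. The 2 libraries whose 33 levels lay farthest from their group means were HFD, Equal light, ZT20, replicate 1 (root mean square 0.53 log2) and HFD, Short light, ZT4, replicate 1 (0.49 log2). In the first, 15 of the 33 genes were below and 13 above all other libraries of the group. In the second, 25 were above and 2 below. Both libraries were picked by these same 33 levels, so high counts follow in part from the picking. The share over all genes was not taken.

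Levels per kilobase of the principal transcript (median CPM divided by length) placed 2 fibrinogen chains at the top: Fgg had 1731 CPM per kb and Fga 1621, followed by C3 with 1286, Kng1 with 1062 and Fgb with 994. C2, the protease of the classical and lectin C3 convertase, and Pros1, the cofactor of activated protein C, were lowest, with 20.7 and 20.9 CPM per kb. Pros1 lay between 5.64 and 6.91 log2 CPM across all libraries, with medians of 6.09 on HFD and 6.11 on LFD. C4b (chr17:34728380-34743882) has the near-identical copy C4a, so that its reads may be split between both in ways the sources used here do not state.

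Upstream sequences are shown for the fibrinogen chains, 3 genes with similar diet differences, and for C8a and C8b, 2 chains of the same protein whose diet differences were apart. Each is the 250 bases before the RefSeq start (GRCm38.p6), 5′ to 3′ on the gene's strand. Capitals mark matches, on either strand, to the letters searched: GTTAAT (the core repeated in the HNF1 motif), TTGCNNAA (C/EBP), TTCNNNGAA (STAT), CACGTG (E-box), TTATGNAA (D-box) and AGGTCA. The last is the core of the ROR or REV-ERB element, searched without its flanking bases, and alone does not identify that element. The windows are chr3:83025903-83026152 (plus strand) for Fga, chr3:83049864-83050113 (minus) for Fgb, chr3:83007474-83007723 (plus) for Fgg, chr4:104876399-104876648 (minus) for C8a and chr4:104766067-104766316 (plus) for C8b.
Fga: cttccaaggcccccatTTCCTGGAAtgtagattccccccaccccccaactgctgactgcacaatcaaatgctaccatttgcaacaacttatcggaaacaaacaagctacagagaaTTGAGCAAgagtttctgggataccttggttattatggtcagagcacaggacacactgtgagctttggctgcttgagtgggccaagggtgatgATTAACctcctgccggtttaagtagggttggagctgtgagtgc
Fgb: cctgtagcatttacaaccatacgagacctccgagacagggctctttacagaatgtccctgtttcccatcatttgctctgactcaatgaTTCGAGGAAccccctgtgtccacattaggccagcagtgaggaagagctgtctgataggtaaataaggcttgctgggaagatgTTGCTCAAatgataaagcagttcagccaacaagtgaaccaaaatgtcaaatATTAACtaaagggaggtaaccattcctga
Fgg: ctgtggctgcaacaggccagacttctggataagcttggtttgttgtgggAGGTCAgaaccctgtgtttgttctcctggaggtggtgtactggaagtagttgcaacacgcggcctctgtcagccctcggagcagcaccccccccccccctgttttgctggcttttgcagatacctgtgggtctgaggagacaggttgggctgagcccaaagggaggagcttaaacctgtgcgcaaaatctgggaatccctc
C8a: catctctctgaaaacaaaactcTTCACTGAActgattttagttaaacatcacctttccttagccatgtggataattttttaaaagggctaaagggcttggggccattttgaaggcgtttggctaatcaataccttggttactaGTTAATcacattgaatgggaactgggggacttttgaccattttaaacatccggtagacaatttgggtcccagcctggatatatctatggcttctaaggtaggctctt
C8b: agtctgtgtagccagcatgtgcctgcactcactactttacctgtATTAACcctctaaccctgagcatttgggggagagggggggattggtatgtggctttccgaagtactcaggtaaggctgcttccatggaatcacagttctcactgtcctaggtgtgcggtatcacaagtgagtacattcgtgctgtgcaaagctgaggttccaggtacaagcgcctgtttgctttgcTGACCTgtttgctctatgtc

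Fga and Fgb, which stand 6514 bases apart on chromosome 3, each held 1 match to the HNF1 core, C/EBP and STAT letters. In Fga these began 43, 135 and 234 bases before the start, and in Fgb 29, 80 and 162. Fgg held none of these 3 and had 1 match to AGGTCA. C8a held the HNF1 core and, 228 bases before the start, the STAT letters; C8b held the HNF1 core at 206 and AGGTCA, on the other strand, at 20. RefSeq windows were matched for 25 of the 33 genes (26 windows, C8g having 2). Among these 26, AGGTCA was found in 10 (38.5%), against 14.02% of all 32851 windows of the same length. F7 and F10, 1499 bases apart on chromosome 8, held it 34 and 30 bases before their starts. The C/EBP letters were in 7 windows (26.9%, against 9.56%), STAT in 6 (23.1%, against 7.02%), the HNF1 core in 5 (19.2%, against 6.43%), the D-box in 1 (3.8%, against 3.07%) and the E-box in 0 (against 6.02%). The full HNF1 motif was in 0 of the 26 and in 3 of all windows. These are matches of letters, and binding was not measured.

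Between diets 14 of the 33 genes differed, by at most 1.29-fold. Lower on HFD were the 3 fibrinogen chains, F7, F10, Kng1 and Serpinc1 among coagulation genes and C8b, C2 and C6 among complement genes. Higher were F9 and F5, and Mbl1 and C8g. A gene is called changed here when its p from limma's moderated test, with the Benjamini-Hochberg adjustment across every gene tested, is below 0.05; 25.5% of all genes tested were called between diets, 12.9% higher and 12.6% lower on HFD. Coagulation had 7 of 19 genes lower and 2 higher, and complement 3 of 14 lower and 2 higher. The median log2 difference, HFD minus LFD, was -0.02 over coagulation and -0.01 over complement genes, beside -0.004 over all genes tested.

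**Figure D1:**
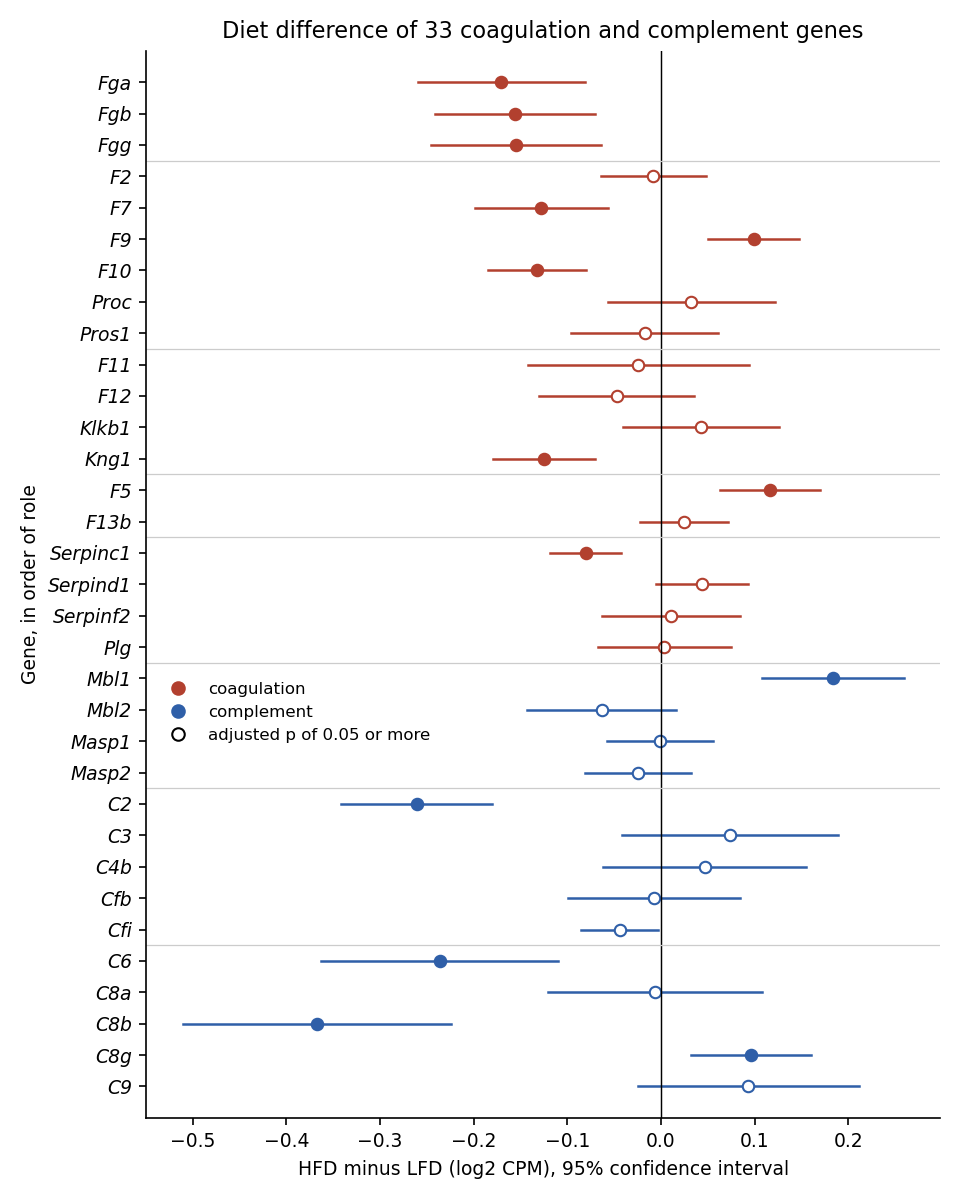
Difference between diets (HFD minus LFD, log2 CPM) for each of the 33 genes in order of role, with 95% confidence intervals from limma. Filled points are the 14 genes with an adjusted p below 0.05; the longest shift is that of C8b at -0.37, and the 3 fibrinogen chains lie side by side near -0.16.

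Fibrinogen, the precursor of fibrin, fell in all 3 chains. Fga, the alpha chain, ranged from 11.35 to 12.71 log2 CPM with a median of 11.99 on HFD, and from 11.53 to 12.99 with a median of 12.10 on LFD. The ranges overlapped almost entirely, and the difference of -0.17 log2 (SE 0.04, adjusted p = 0.00238 by limma) is a shift of the centre, seen in 14 of 18 matched pairs of group means. Fgb, the beta chain, ran from 11.25 to 12.68 (median 11.81) on HFD and from 11.38 to 12.63 (median 11.95) on LFD, a difference of -0.16 (SE 0.04, adjusted p = 0.00389). Fgg, the gamma chain, ran from 10.88 to 12.18 (median 11.47) on HFD and from 10.93 to 12.27 (median 11.61) on LFD, a difference of -0.15 (SE 0.05, adjusted p = 0.00749, and 0.0689 without replicate 3 of each group). All 3 chains had lower medians on HFD within overlapping ranges. The diet difference of Fga minus that of Fgg was -0.02 log2 (permutation p = 0.371, adjusted 0.483), and no pair of chains passed this test. In a bulk liver sample, fewer cells of a type and less RNA per cell cannot be told apart, here and for every gene below.

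Among the vitamin K dependent genes, F10, the protease that forms thrombin, went down together with its neighbour F7, which starts the extrinsic pathway. F10 ranged from 7.88 to 8.87 log2 CPM with a median of 8.58 on HFD, and from 8.01 to 8.96 with a median of 8.75 on LFD. It differed by -0.13 log2 (SE 0.03, adjusted p = 4.84e-05), lower in 16 of 18 pairs. F7 also differed by -0.13 (SE 0.04, adjusted p = 0.0044), and the difference of F7 minus that of F10, 0.005 log2, did not pass its test (permutation p = 0.817, adjusted 0.919). F9, the protease missing in haemophilia B, went the other way. It ran from 7.53 to 8.68 log2 CPM on HFD (median 7.79) and from 7.46 to 8.01 on LFD (median 7.72), a difference of 0.10 log2 (SE 0.02, adjusted p = 0.00113) and 15 of 18 pairs higher. Without replicate 1 of each group these 3 calls were lost: F10 was at -0.07 (adjusted p = 0.0578), F7 at -0.06 (adjusted p = 0.281) and F9 at 0.06 (adjusted p = 0.125). F2 (-0.01), Proc (0.03) and Pros1 (-0.02) were not called.

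In the contact pathway, Kng1, the kininogen that carries bradykinin, differed by -0.12 log2 (SE 0.03, adjusted p = 0.000256), lower in 15 of 18 pairs. F11 (-0.02), F12 (-0.05) and Klkb1 (0.04) were not called. F5, the cofactor of F10, ranged from 9.41 to 10.08 log2 CPM on HFD (median 9.80) and from 9.30 to 10.02 on LFD (median 9.67). Its difference of 0.12 log2 (SE 0.03, adjusted p = 0.00048) was positive in 17 of 18 pairs and opposite in sign to that of F10. F13b, the carrier subunit of factor XIII, was at 0.02. Of the inhibitors, Serpinc1, antithrombin, differed by -0.08 (SE 0.02, adjusted p = 0.000614), and by -0.05 without replicate 1 (adjusted p = 0.138). Serpind1, heparin cofactor II, was at 0.04, Serpinf2, alpha-2-antiplasmin, at 0.01 and Plg, plasminogen, at 0.004, and none of these 3 was called.

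In the lectin pathway, Mbl1, a mannose-binding lectin that starts the route, rose. It ranged from 6.89 to 7.94 log2 CPM with a median of 7.55 on HFD, and from 6.60 to 8.17 with a median of 7.36 on LFD. The spread was wider on LFD at both ends, and the difference was 0.18 log2 (SE 0.04, adjusted p = 0.000113), positive in 15 of 18 pairs. Its partner lectin Mbl2 (-0.06) and the proteases Masp1 (-0.001) and Masp2 (-0.02) were not called.

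C2 was the convertase gene that fell. Its levels ran from 5.03 to 6.18 log2 CPM with a median of 5.65 on HFD, and from 5.45 to 6.54 with a median of 5.96 on LFD. The group mean was lower on HFD at every time and photoperiod, in 18 of 18 pairs, with a difference of -0.26 log2 (SE 0.04, adjusted p = 3.55e-07). Cfb, factor B, which plays the part of C2 in the alternative pathway and lies 86 bases from it (C2 at chr17:34862604-34898265, Cfb at chr17:34856374-34862518), was at -0.01 (SE 0.05, 95% confidence interval -0.10 to 0.08). The gap between the 2 genes was -0.25 log2 (two-sided permutation of the diet labels within photoperiod and time, p = 1e-05, the smallest that 100000 permutations can give, adjusted 3e-05 over 9 pairs of genes). The pairs were chosen with earlier results of these data known, so this p is no independent support for the gap. C3 (0.07), C4b (0.05) and Cfi (-0.04, adjusted p = 0.11) were not called.

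The terminal genes divided. C8b, the beta chain of C8, ran from 7.32 to 8.92 log2 CPM with a median of 8.18 on HFD, and from 7.33 to 9.38 with a median of 8.64 on LFD. It differed by -0.37 log2 (SE 0.07, adjusted p = 4.3e-05), which is 1.29-fold higher on LFD, in 18 of 18 pairs. C8a, the alpha chain encoded 11131 bases away on chromosome 4 (C8b at chr4:104766317-104804548, C8a at chr4:104815679-104876398, GRCm38), ran from 8.99 to 10.66 on HFD (median 9.74) and from 8.99 to 10.55 on LFD (median 9.71). Its difference was -0.01 (SE 0.06, 95% confidence interval -0.12 to 0.11). C8g, the gamma chain, ran from 8.01 to 8.84 on HFD (median 8.53) and from 7.52 to 8.82 on LFD (median 8.47). It differed by 0.10 (SE 0.03, adjusted p = 0.02), and was not called without the libraries rich in pancreas or muscle markers (0.08, adjusted p = 0.0678) or without replicate 2 or 3 (adjusted p = 0.15 and 0.0642). The diet difference of C8b minus that of C8a was -0.36 log2, and minus that of C8g -0.46 log2 (permutation p = 1e-05 and adjusted 3e-05 for each, the smallest p that the permutations can give). These pairs too were chosen with earlier results known, so the p-values are no independent support. C6, another terminal component, ran from 7.61 to 9.23 on HFD (median 8.42) and from 8.0005 to 9.65 on LFD (median 8.63). It differed by -0.24 (SE 0.06, adjusted p = 0.00304). C9, the pore-forming unit, was at 0.09 and was not called.

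**Figure D2:**
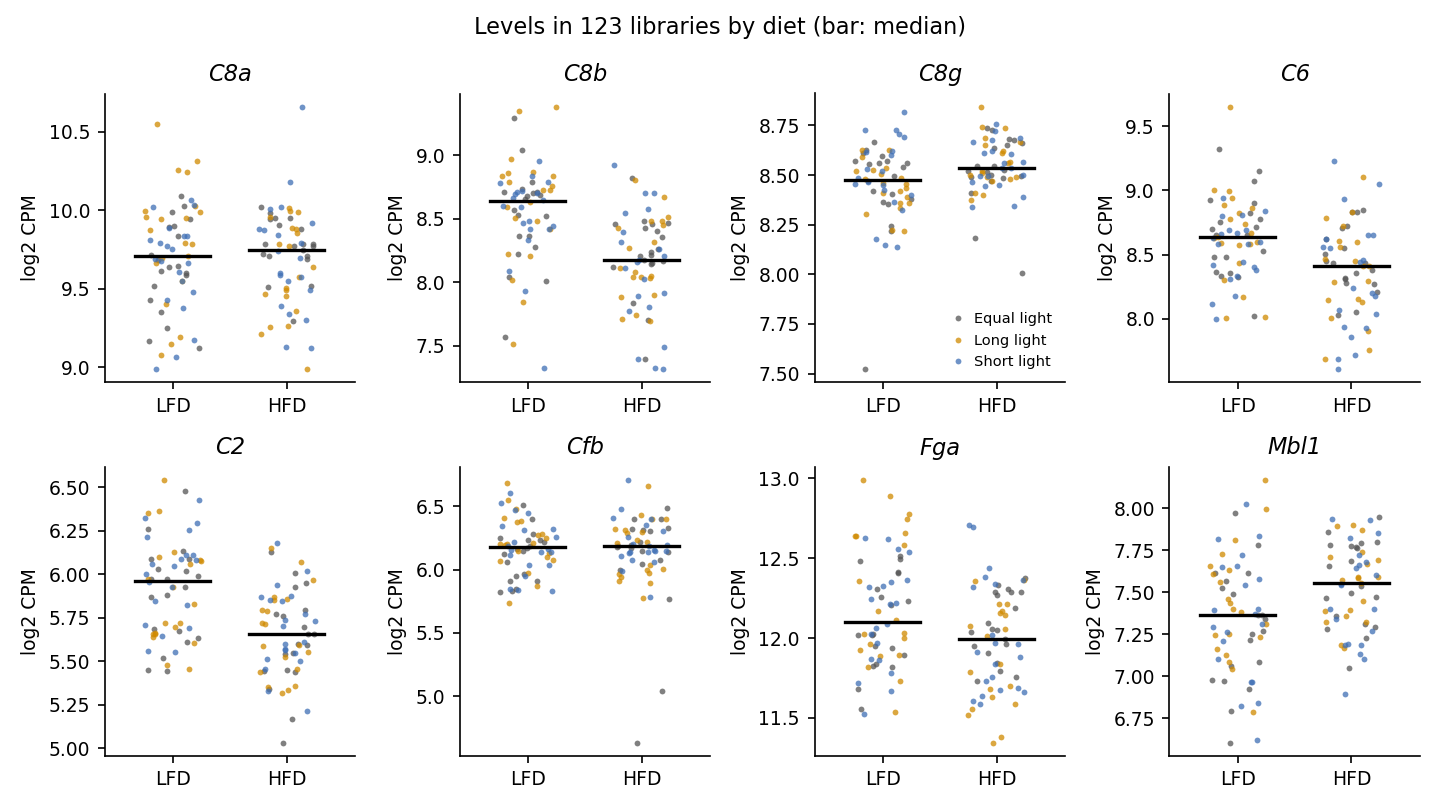
Level (log2 CPM) in each library by diet for 8 genes, with points coloured by photoperiod and bars at the median of 61 HFD or 62 LFD libraries. The C8b, C6 and C2 medians are lower on HFD, the C8a and Cfb medians are level, and 1 HFD library in Equal light lies far below the rest in Cfb (4.64).

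Markers of other cells moved with diet too. Of 11 pancreas acinar markers, 10 were lower on HFD; their mean ran from -2.70 to 5.49 log2 CPM on HFD and from -2.72 to 8.34 on LFD, and single markers were at the floor in 0 to 52 libraries. Of 10 Kupffer cell and macrophage markers 6 were higher on HFD (mean 4.22 to 5.85, against 4.00 to 5.92 on LFD), as were 7 of 10 pericentral hepatocyte markers (6.86 to 7.60, against 6.14 to 7.60), while 2 of 10 periportal markers and 1 of 9 hepatocyte markers were lower. Among these lists the Kupffer and macrophage list had 0 markers at the floor. Without the 20 libraries rich in pancreas or muscle markers, 9 coagulation and 4 complement genes were called; the part of the Kupffer and pericentral markers in these differences was not tested.

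Outside the 33 genes, the other genes of both pathways were read from lists drawn from textbook knowledge. Of 31 other complement genes, 13 were higher and 2 lower on HFD, with a median of 0.12 log2 (Vsig4 and C1qa are also in the Kupffer list). The 4 with the smallest p were the membrane regulators Cd59a (0.25, adjusted p = 8.37e-09) and Cd59b (0.24, adjusted p = 2.74e-05), the collectin Colec11 (0.17, adjusted p = 2.27e-06) and the protease C1s1 (0.10, adjusted p = 0.000384), all higher. Of 24 other coagulation and fibrinolysis genes, 5 were higher and 5 lower, with a median of -0.01; the 4 with the smallest p were Serpina5, the protein C inhibitor, at -0.77 (adjusted p = 0.000129), Kng2 at -0.08 (adjusted p = 0.0059), Vwf at 0.22 (adjusted p = 0.00791) and Cpb2 at -0.10 (adjusted p = 0.01). Among 19 acute phase genes 10 were higher and 2 lower, led by Orm3 (2.29-fold, adjusted p = 5.15e-08). Next came Saa4 (0.50 log2, adjusted p = 1.35e-05), Hp (0.43 log2, adjusted p = 0.000318) and Lcn2 (1.06 log2, adjusted p = 0.00133). Without the 20 libraries rich in pancreas or muscle markers 6 acute phase genes were higher and 2 lower. Of 20 transcription factors and signalling genes of the liver, Ppara was higher (0.26, adjusted p = 0.000129) and Foxa2 (-0.25), Onecut1 (-0.74) and Il1r1 (-0.23) were lower; without those 20 libraries 1 was higher and 1 lower. Of 15 clock genes 0 were called.

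Within single photoperiods fewer genes passed, and most were lower on HFD. In Equal light 3 of the 33 were higher and 1 lower, where 6.85% of all genes were called (3.5% higher, 3.35% lower). In Long light 7 were lower, where 4.86% were called (1.64% lower), and in Short light 5 were lower, where 6.88% were called (3.14% lower). Fga differed by -0.37 log2 in Long light (SE 0.08, adjusted p = 0.000964), by -0.10 in Short light (SE 0.08, adjusted p = 0.463) and by -0.04 in Equal light (SE 0.08, adjusted p = 0.854). Median Fga levels on HFD and LFD were 11.93 and 12.11 in Long, 11.91 and 12.21 in Short and 12.06 and 12.02 in Equal light. Fgb (-0.32, adjusted p = 0.00433) and Fgg (-0.32, adjusted p = 0.00641) followed Fga in Long light, where Kng1 (-0.18), Cfi (-0.15), C8b (-0.42) and C2 (-0.23) were also called. In Short light F10, Kng1, Serpinc1, C2 and C8b were called, and in Equal light F5, F9 and Mbl1 were higher and C2 lower, so that C2 was called in each of the 3 photoperiods.

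Whether the diet difference itself changed with photoperiod was tested directly. Of the 33 genes 0 were called by limma, as were 0 of all genes (0%); limma-voom also called 0. Unadjusted, 6 genes (18.2%, beside 3.35% of all genes) had p below 0.05: Fga (0.00757), Fgb (0.0248), Fgg (0.0331), Cfi (0.00168), C8a (0.0323) and C3 (0.0125). The fibrinogen difference in Long light is therefore not shown to differ from that in the other photoperiods. With fewer libraries the calls were lost: without replicate 3 of each group Fga in Long light was at -0.31 (adjusted p = 0.0839), Fgb at -0.25 (0.176) and Fgg at -0.24 (0.247), and 0 of the 33 genes were called there. Without replicate 1, 0 were called in Equal and in Short light, and without the 20 libraries rich in pancreas or muscle markers 2 were called in Long light.

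**Figure D3:**
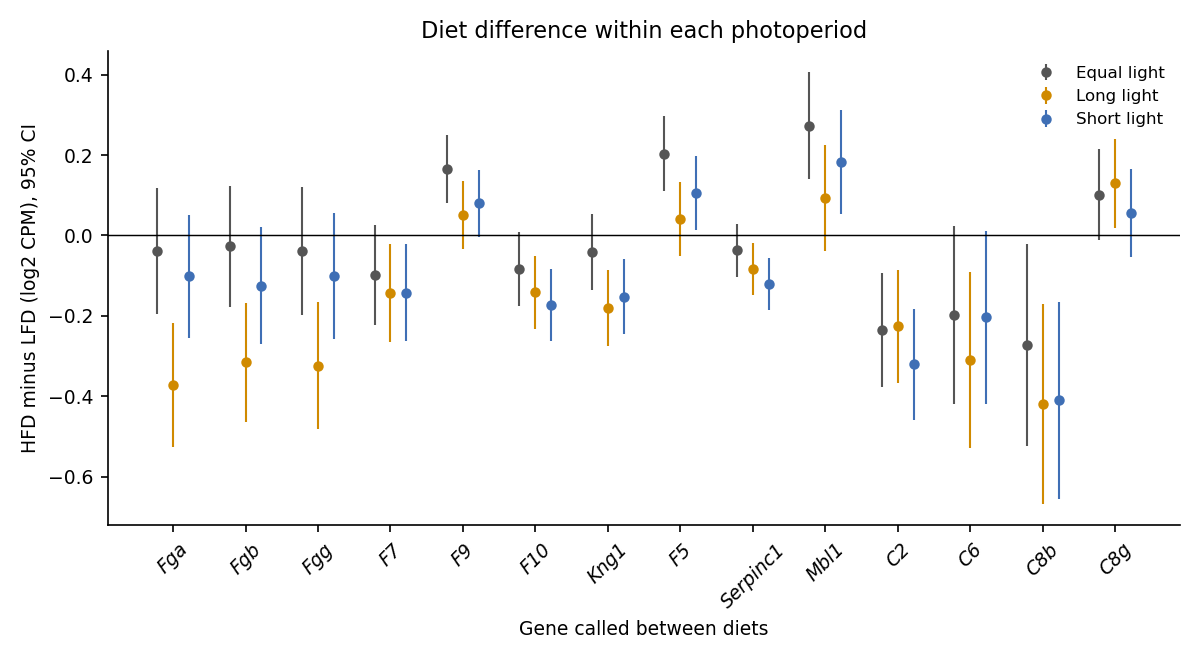
HFD minus LFD (log2 CPM, 95% confidence interval from limma) in each photoperiod for the 14 genes called between diets. C2 and C8b are below 0 in all 3 photoperiods, while the fibrinogen chains are near -0.3 to -0.4 in Long light and nearer 0 in Equal light.

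At single times the diets were compared over all photoperiods. C2 (-0.42, SE 0.10, adjusted p = 0.00826) and C8b (-0.58, SE 0.17, adjusted p = 0.0498) were lower on HFD at ZT16, where 2.5% of all genes were called. At ZT0, ZT4, ZT8, ZT12 and ZT20, limma called 0 of the 33, where 0.472%, 2.36%, 0.181%, 0.00695% and 0.597% of all genes were called. At an unadjusted p below 0.05 were 5, 10, 3, 2 and 7 of the 33 (15.2%, 30.3%, 9.09%, 6.06% and 21.2%), beside 12.5%, 15.3%, 10.3%, 7.94% and 13.1% of all genes. Limma-voom also called 0 of the 33 at these 5 times; at ZT16 it called C2 (adjusted p = 0.00877) and not C8b (0.0552).

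No difference in the level averaged over the day was called between photoperiods. Long against Short, Long against Equal and Short against Equal light each called 0 of the 33 genes by limma and by limma-voom (0%, 0.0278% and 0.00695% of all genes in limma). At an unadjusted p below 0.05 were 0, 3 and 7 of the 33 (0%, 9.09% and 21.2%), beside 2.79%, 14.6% and 16.6% of all genes.

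The daily rhythm was tested next. A cosine of 24 h was fitted in each arm (1 diet in 1 photoperiod), and the amplitude is the distance from mean to peak. With coefficients averaged over the 6 arms, limma called 14 of the 33 genes rhythmic, against 50.5% of all genes: 9 coagulation genes (Fga, Fgb, Fgg, F7, F9, F10, F11, Klkb1, Serpinf2) and 5 complement genes (Mbl1, Masp1, Masp2, C2, C3). Where peaks differ between photoperiods, averaged coefficients partly cancel, so that an averaged amplitude can be smaller than those within the photoperiods and an averaged peak need not be the peak of any of them. The averaged amplitude of Fga was 0.21 log2 (SE 0.03), while it was 0.42 in Long (SE 0.05), 0.30 in Short (SE 0.05) and 0.20 in Equal light (SE 0.06), with peaks at ZT3.1, ZT20.3 and ZT21.9. Mbl1 had 0.24 averaged (SE 0.03), and 0.26 in Long, 0.39 in Short and 0.32 in Equal light, with peaks at ZT1.8, ZT18.9 and ZT19.9. The amplitudes of both were below those of Dbp, an output gene of the clock, which had 3.18 in Long, 3.17 in Short and 3.44 in Equal light. C2 had 0.09 averaged, and 0.26 in Long, 0.18 in Short and 0.17 in Equal light, with peaks at ZT18.0, ZT7.5 and ZT13.1. F11 had 0.27 in Long, 0.28 in Short and 0.29 in Equal light, with peaks at ZT10.1, ZT2.6 and ZT6.4. Fgg had 0.36, 0.27 and 0.19 and Fgb 0.31, 0.22 and 0.12 in Long, Short and Equal light. Masp2 had 0.10 in Long, 0.14 in Short and 0.20 in Equal light, and peaked at ZT16.3, ZT9.4 and ZT11.8. C3 had 0.22 in Long, 0.14 in Short and 0.11 in Equal light, and its averaged call was lost without replicate 1 (adjusted p = 0.11), without replicate 3 (0.554) and without the libraries rich in pancreas or muscle markers (0.0524). C2 lost its averaged call without those libraries (0.116), without replicate 3 (0.119) and without replicate 4 (0.0655). F9 (0.0539) and Masp1 (0.0694) lost theirs without replicate 1, and Klkb1 (0.135) without replicate 2. Plg gained a call without the libraries rich in pancreas or muscle markers (0.0197), as did Cfb (0.000296) and Kng1 (0.0213) without the 2 libraries farthest from their groups.

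In single arms 14 genes were rhythmic in at least 1 arm, Mbl1 in all 6, Fga in 5, and C2 and Serpinf2 in 4 each, while 19 were rhythmic in 0 arms. The share of all genes rhythmic in at least 1 arm was not taken. Of the 33, 18.2% were called in Equal light on either diet. In Long light 24.2% and 21.2% were called on HFD and LFD, and in Short light 15.2% and 24.2%. Of all genes, 16.5% and 20.9% were called in Equal light on HFD and LFD, 21.8% and 23.6% in Long light, and 14.1% and 27.1% in Short light. An F test of all 12 coefficients, added after seeing the data, called 19 of the 33 (13 coagulation, 6 complement) against 52.7% of all genes, F5, F13b, Kng1, Pros1, Cfb and Mbl2 being added and C3 lost. Between diets the rhythm was not called different for any of the 33: limma and limma-voom called 0, with 3 (9.09%, beside 2.78% of all genes) at an unadjusted p below 0.05 (C6, Serpind1 and Mbl2), and 0.00695% of all genes were called.

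**Figure D4:**
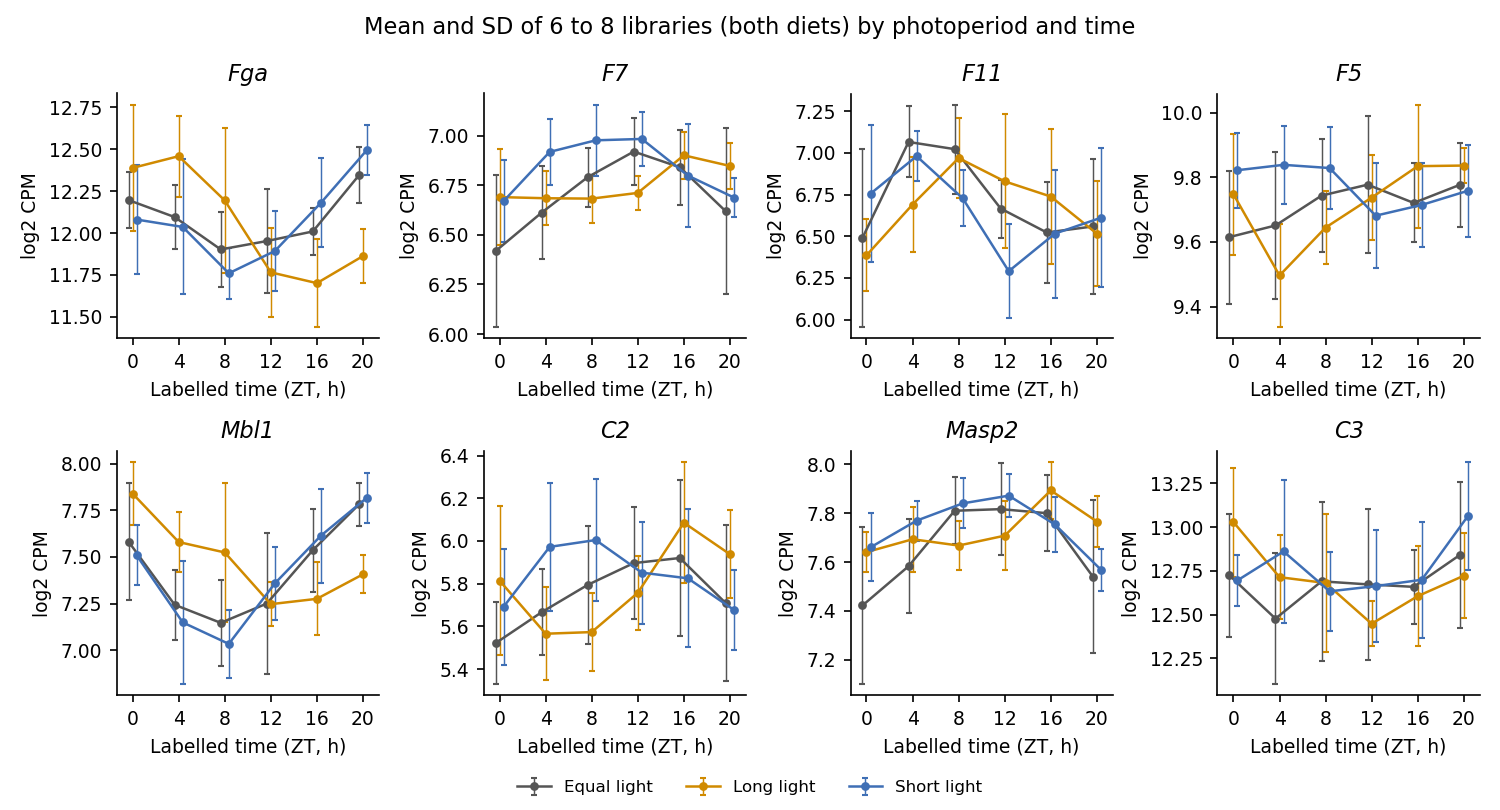
Mean level (log2 CPM) at each labelled time for 8 genes, with bars of 1 SD over the 6 to 8 libraries of both diets; the 3 photoperiods are drawn in different colours and set slightly apart. Fga and Mbl1 in Long light (peaks at ZT3.1 and ZT1.8) crest later than in Short light (ZT20.3 and ZT18.9), and C2 and F7 change places in the same way.

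Between photoperiods the rhythm of 17 genes differed, 11 of 19 coagulation and 6 of 14 complement genes. The share, 51.5% of the 33, was near the 49.1% of all genes. In order of p the 6 leading genes were Mbl1 (adjusted p = 1.31e-09), Fga (1.24e-08), Fgg (1.01e-06), C2 (1.01e-06), Serpinf2 (1.84e-05) and Fgb (0.000118), all by limma. Some calls were lost when 1 library of each group was left out. Kng1 (adjusted p = 0.17), F13b (0.0688) and Masp1 (0.0843) were lost without replicate 1, and Cfb (0.172) and F13b (0.183) without replicate 2. Pros1 (0.279), Mbl2 (0.182), Kng1 (0.163) and F13b (0.0522) were lost without replicate 3, and Mbl2 (0.0749) without replicate 4. Mbl2 was also lost with library number as a covariate (0.0979). Without the 20 libraries rich in pancreas or muscle markers Cfb (0.11) and Mbl2 (0.174) were lost and C4b (0.0173) was gained, and without the 2 libraries farthest from their groups F2 (0.0486) and Proc (0.0298) were gained. In Short light Fga ran from 12.33 to 12.71 log2 CPM at ZT20 (median 12.54) and from 11.59 to 12.02 at ZT8 (median 11.76). In Long light it ran from 12.07 to 12.78 at ZT4 (median 12.36) and from 11.35 to 12.002 at ZT16 (median 11.73). In each photoperiod the high and the low time did not overlap.

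Mbl1 showed the same shape. In Short light it lay between 7.65 and 8.02 at ZT20 (median 7.82) and between 6.82 and 7.27 at ZT8 (median 7.10). In Long light it lay between 7.67 and 8.17 at ZT0 (median 7.81) and between 7.13 and 7.39 at ZT12 (median 7.21). Neither pair overlapped. C2 was low at the times given above for high Fga, ZT20 in Short and ZT4 in Long light. In Short light the C2 median was 6.06 at ZT4 (5.57 to 6.32) and 5.56 at ZT20 (5.503 to 5.96), and in Long light 5.46 at ZT4 (5.32 to 5.97) and 6.07 at ZT16 (5.72 to 6.54), with overlap in both.

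Fgb and Fgg followed Fga. In Short light Fgb had medians of 12.22 at ZT20 (12.05 to 12.38) and 11.67 at ZT8 (11.36 to 11.88), and in Long light 12.09 at ZT4 (11.99 to 12.41) and 11.58 at ZT16 (11.36 to 11.93). Fgg had medians of 11.86 at ZT20 (11.72 to 11.99) and 11.20 at ZT8 (10.94 to 11.33) in Short light, and 11.74 at ZT4 (11.71 to 12.15) and 11.26 at ZT16 (10.88 to 11.44) in Long light. None of these 4 pairs of times overlapped. Serpinf2, the plasmin inhibitor, had medians of 9.78 at ZT20 (9.58 to 9.86) and 9.19 at ZT8 (8.99 to 9.29) in Short light, without overlap, and in Long light 9.66 at ZT4 (9.48 to 9.89) and 9.30 at ZT16 (9.05 to 9.59), with overlap.

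F11, a protease of the intrinsic pathway, had another phase. In Short light its median was 6.96 at ZT4 (6.86 to 7.29) and 6.34 at ZT12 (5.94 to 6.60), without overlap, and in Long light 7.02 at ZT8 (6.54 to 7.36) and 6.43 at ZT0 (5.98 to 6.58), with overlap. Masp2, the protease that cuts C4 and C2, had medians of 7.83 at ZT12 (7.79 to 8.02) and 7.59 at ZT20 (7.44 to 7.67) in Short light, without overlap, and in Long light 7.93 at ZT16 (7.71 to 8.04) and 7.66 at ZT0 (7.49 to 7.73), with overlap. C3, the central component, had medians of 13.04 at ZT20 (12.49 to 13.44) and 12.57 at ZT8 (12.36 to 12.95) in Short light, with overlap, and 12.94 at ZT0 (12.74 to 13.58) and 12.50 at ZT12 (12.27 to 12.56) in Long light, without overlap. These high and low times were picked from the values and carry no test of their own.

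Fitted peaks in Long light were later than in Short light for 15 of the 17 genes called for that pair of photoperiods. Each shift was taken as at most 12 h in either direction. The median shift was 7.49 h, beside 8.23 h (6.80 to 10.73 h) over 15 clock genes. That median counts F5 and F13b, given below, as earlier, and would be higher with both counted as later. In that comparison 52.9% of all genes were called. Fga peaked at ZT3.1 in Long and ZT20.3 in Short light, 6.87 h later (SE 0.85 h), Mbl1 at ZT1.8 and ZT18.9, 6.90 h later (SE 0.82 h), and C2 at ZT18.0 and ZT7.5, 10.5 h later (SE 1.24 h). Serpinf2, alpha-2-antiplasmin, shifted by 7.13 h (SE 1.03 h), Fgg by 7.11 h (SE 0.98 h) and Fgb by 6.34 h (SE 1.10 h). F7 shifted by 8.58 h (SE 1.71 h), F11 by 7.49 h (SE 1.42 h) and Masp2 by 6.90 h (SE 1.62 h). The exceptions were F5 at -9.42 h (SE 1.89 h) and F13b at -11.8 h (SE 2.88 h), where a shift near 12 h has no direction on a 24 h circle. The same limit holds for C2, Kng1 (10.6 h, SE 2.16 h), Mbl2 (10.6 h, SE 3.30 h), Pros1 (10.1 h, SE 2.05 h) and Masp1 (9.74 h, SE 1.76 h), counted as later. With SEs of this size the direction is also uncertain for Cfb (8.66 h, SE 2.12 h), Klkb1 (8.40 h, SE 1.92 h) and F7. The labels do not say how ZT0 was set in each photoperiod, so that a shift of the genes against the light cycle and a shift of the labels cannot be told apart.

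**Figure D5:**
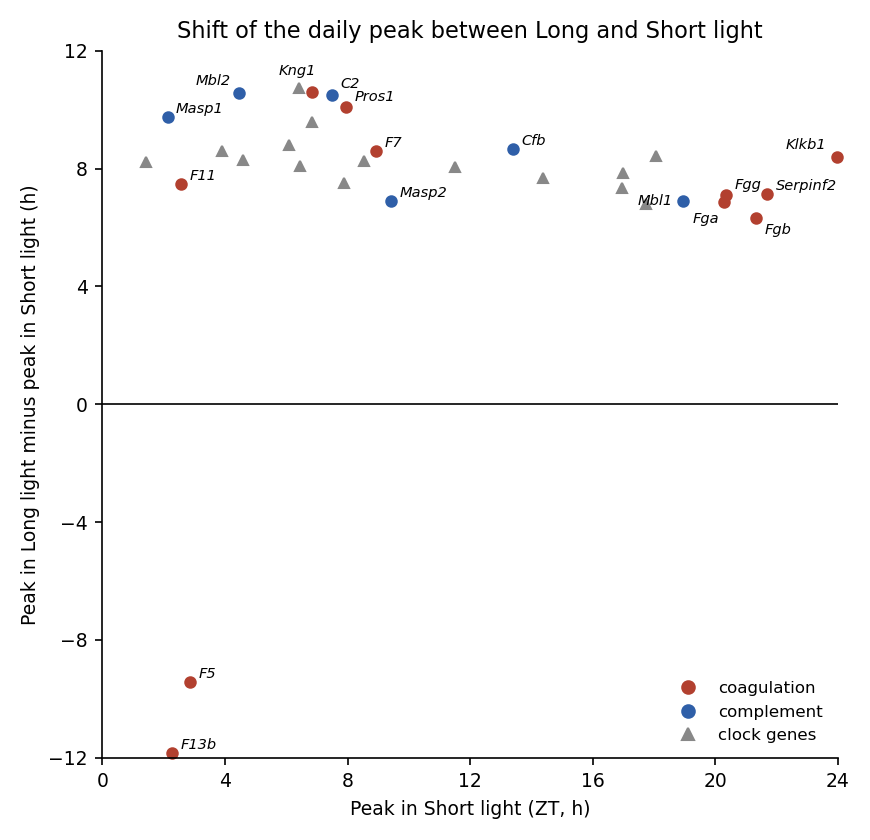
Shift of the fitted peak from Short to Long light (hours, on the vertical axis) against the peak in Short light (ZT, hours), for the 17 coagulation and complement genes called for a rhythm difference between Long and Short light and for 15 clock genes (triangles). Of the 17 genes 15 lie above 0, as do the 15 clock genes, and F5 and F13b lie at -9.42 h and -11.8 h. Fga, Fgg, Fgb, Serpinf2, Klkb1 and Mbl1 peak in Short light between the clock genes Npas2 at ZT18.1 and Nr1d1 at ZT1.4 of the next cycle.

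Against Equal light, Long light gave 8 genes with a different rhythm (23.8% of all genes called): Fga, Fgb, Fgg, F7, Mbl1, Masp2, C2 and Cfb. Short light gave 3 (16.3%): F5, Masp1 and C2. Of 24 other coagulation genes 14, and of 31 other complement genes 6, had a rhythm that differed between photoperiods, as had 7 of 19 acute phase genes, 16 of 20 liver transcription factors and signalling genes and 15 of 15 clock genes.

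Within groups the genes also varied together from library to library. After subtracting group means, Pearson's r over all 61 HFD and 62 LFD libraries, given as a description since libraries share depth and scaling, was 0.95 for Fgb with Fgg, 0.93 for Fga with Fgb and 0.92 for Fga with Fgg. It was 0.90 for F2 with F12, 0.80 for F7 with F10 and 0.79 for C6 with C8b, 2 genes that were both lower on HFD. C8a and C8b varied together (0.78) although their diet differences were apart, C2 and Cfb less so (0.49), and C8g hardly followed either C8 chain (0.16 with C8a, 0.25 with C8b). The median r was 0.24 within coagulation (171 pairs), 0.24 within complement (91 pairs) and 0.28 between the classes (266 pairs). The lowest, F9 with F12, was -0.54, and -0.38 without the 2 libraries farthest from their groups.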

How the data were processed

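Per the labels' protocols, liver RNA was purified with Trizol and columns, poly-A RNA was made into stranded libraries and sequenced as pairs of reads. The submitters' processing notes name STAR, featureCounts, Subread 1.6.2 and mm10 (GRCm38); options, annotation and normalization are not given in the sources used here. One deposited table, made by the authors, holds log2 CPM values of 15398 genes with a floor of -3.6124 log2 CPM. With that floor read as a prior of 2 reads in a library of mean size, values under 1000 reads came out as whole reads, within 0.05 read, in 100% of cases, which gave the depth (13.97 M to 39.09 M reads). Differences of genes near the floor are shrunk by this prior. Every value column was matched to its sample by name.

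The filter required 1 CPM or more in 3 or more libraries (14397 genes). The deposited log2 values went into limma 3.58.1 (R 4.3.3, variance trend on), with 1 mean per group for levels, or a mean, cosine and sine of 24 h per arm for rhythms. The Benjamini-Hochberg adjustment covered all genes kept, with a threshold of 0.05. Contrasts weight groups equally. Standard errors of amplitudes and peak times come from the delta method. For 9 pairs of genes (neighbours within 100000 bases, and the C8 chains) the difference of the 2 genes was compared between diets by 100000 permutations within photoperiod and time. Read counts of the 153 library pairs within groups gave a chi-square per degree of freedom of 14.33 or more, so none was counted as 1 sample. Positions are from GENCODE mouse release 21 (GRCm38) and upstream sequences from RefSeq. The fits were tested on simulated data. The members, lists and pairs were chosen with earlier results of these data known. Values by group are given for the 4 largest rises and falls of each class between diets, the 4 largest amplitudes of each class, the 6 smallest p for a rhythm difference and the 2 lowest levels; for other lists, up to 4 genes with the smallest p. Alternatives covered limma-voom on the recovered reads, log2(CPM + 1), no filter, centring on the median gene, library weights, library number as a covariate, libraries left out and other rhythm tests; leaving out the 2 libraries farthest from their groups and the test of every arm were added after seeing the data. Of the marker lists not described in the results, 1 of 8 endothelial, 2 of 8 stellate and matrix, 0 of 7 lymphocyte, 0 of 2 neutrophil, 1 of 1 platelet, 0 of 5 cholangiocyte, 0 of 12 skeletal muscle, 4 of 5 blood and 0 of 4 adipocyte markers were called between diets.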

Additional observations from a re-analysis of the deposited data

Results flagged for a closer look

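The daily rhythm of 17 genes differed between Equal, Long and Short light by a test of the difference itself (limma's F test, Benjamini-Hochberg over 14397 genes). These are 51.5% of the 33 genes, near the 49.1% of all genes, so the count is not particular to them. Among coagulation genes the adjusted p was 1.24e-08 for Fga, 1.01e-06 for Fgg, 1.84e-05 for Serpinf2, 0.000118 for Fgb, 0.000215 for F7, 0.000326 for F5, 0.00105 for Klkb1, 0.00163 for F11, 0.0103 for Kng1, 0.0119 for Pros1 and 0.0144 for F13b. Among complement genes it was 1.31e-09 for Mbl1, 1.01e-06 for C2, 0.000395 for Masp1, 0.000713 for Masp2, 0.00639 for Cfb and 0.0229 for Mbl2.

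In 72 sets of libraries of 1 gene, photoperiod and time, 7 held a library far from the others by Dixon's criterion, which chance meets in about 1 in 20. In Equal light these were the highest Fga library at ZT8 (12.33 log2 CPM), the lowest Mbl1 library at ZT0 (6.97), the lowest C2 library at ZT12 (5.34) and the lowest F7 libraries at ZT4 (6.11) and ZT20 (5.74). In Long light it was the lowest Mbl1 library at ZT4 (7.24), and in Short light the lowest F7 library at ZT16 (6.24).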

How the results depend on the processing

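No result reversed. No paired analysis was possible because the labels carry no replicate numbers; numbers used here were given in accession order and serve as names. Leaving out 1 library of each group in turn gave 5 to 9 coagulation genes called between diets (9 with all libraries), 3 to 6 complement genes with a daily rhythm (5), and 0 to 4 genes in Equal (4), 0 to 5 in Long (7) and 0 to 3 in Short light (5) called between diets. Weighting libraries raised the coagulation genes with a daily rhythm to 15 and with a rhythm difference between photoperiods to 17, the genes called between diets to 13 in Long and 9 in Short light, and those rhythmic in at least 1 arm from 14 to 23. Without the libraries rich in pancreas or muscle markers, 3 complement genes had a daily rhythm and 2 genes were called in Long light. With the 6 times as levels, 2 complement genes were called for time of day. The cause of these changes was not tested, beyond the smaller number of libraries. The share of all genes called under each alternative setting is not given, here or in the results above. Whether the changes are particular to the coagulation and complement genes was therefore not tested. Limma-voom, log2(CPM + 1), no filter and centring on the median gene changed no call among the 14 genes called between diets. Groups of 3 or 4 libraries limit what single times and photoperiods can show.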

Other observations

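The HFD library in Short light at ZT4, replicate 1, was picked by its distance over the 33 genes. It held 25 of them above the other libraries of its group, a count that follows in part from the picking, and also 19 of 19 acute phase genes. Saa1 was at 12.66 log2 CPM against 5.27 to 5.91 in the others, Hp at 13.24 against 10.86 to 11.23 and Lcn2 at 8.91 against 2.11 to 2.75. With them stood C9 (10.22 against 8.92 to 9.12), C3 (13.66 against 12.60 to 12.89) and Fgb (12.68 against 11.51 to 11.59). The HFD library in Equal light at ZT20, replicate 1, differed in another way. Proc (7.40 against 8.80 to 8.91), F12 (7.38 against 8.70 to 8.91), F2 (9.81 against 10.72 to 10.78) and Cfb (4.64 against 6.17 to 6.33) were below the rest of the group, and F9 (8.68 against 7.93 to 8.08) was above it. Of 19 acute phase genes 13 were below and 4 above the rest of the group. Among those above, Crp and Cp were at their highest level of all libraries. Without these 2 libraries, an alternative chosen after seeing the data, 9 coagulation and 6 complement genes were called between diets, Cfi (-0.05, adjusted p = 0.0333 by limma) being added.

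After subtracting group means, the serum amyloid gene Saa1 varied with C4b (Pearson's r 0.71 over all libraries, 0.67 without those 2), Cfi (0.58 and 0.49), C3 (0.52 and 0.45) and Fga (0.42 and 0.30). At the other end were F13b (-0.27 and -0.26) and F11 (-0.26 and -0.27). These values describe libraries that share depth and scaling, and carry no test.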
